A study of Mus musculus with 6 samples.

Results

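The serpin genes were taken from the expression table by name, as every row whose gene symbol is *Serpin* followed by a clade letter from a to i, a number and at most 1 further letter, with pseudogene names left out. The rule found 49 genes among 31950, of which 48 are described, and 27 of these passed the expression filter and were tested, among 13243 genes tested in all. The expression table holds RNA-seq of the livers of 3 wild-type (WT) and 3 β-cateninΔ(ex3)/+ mice, all of strain C57BL/6 and 8 weeks old. The β-cateninΔ(ex3)/+ mice carried 1 allele of *Ctnnb1*, the β-catenin gene, from which exon 3 was deleted, so that the protein escapes degradation. The study deleted exon 3 with an albumin-driven Cre, which acts in hepatocytes, with a tamoxifen-inducible form of it, or with a Cre adenovirus. The labels do not give which of these applied to the sequenced livers, whether the WT mice received the same agent, or the sex of the mice. In the study, mice with the albumin-driven Cre that acts without tamoxifen died before 8 weeks of age. The study uses the name β-cateninΔ(ex3)/+ for livers of the tamoxifen-induced mice. Expression is given in FPKM, fragments scaled by transcript length and by library size.

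Serpins are a family of proteins that share 1 fold. Most members inhibit serine proteases by a suicide mechanism, in which the protease cuts an exposed reactive centre loop and is trapped in a covalent complex, while others carry hormones, assist the folding of collagen or have no known protease target. The liver secretes most serpins of blood plasma, among them α1-antitrypsin, the main inhibitor of neutrophil elastase, and antithrombin, the inhibitor of thrombin and factor Xa. In the mouse both α1-antitrypsin and α1-antichymotrypsin, which are encoded by single genes in humans, are encoded by groups of duplicated genes on chromosome 12, named *Serpina1a* to *Serpina1f* and *Serpina3a* to *Serpina3n*.

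The copies of *Serpina1* were almost the same in sequence, which bears on how well fragments can be assigned to each of them. The coding sequences of *Serpina1a* to *Serpina1e* were 96.3% to 98.5% identical between pairs, and 86 of the 1239 positions that all 5 copies share varied among them. The stretch of 60 bases in which they varied most, at 18 positions, is shown because it distinguishes the copies, with the bases that vary in capitals. It was read from the mouse build GRCm38 on the minus strand, lies within 1 coding exon of each gene, and spans *Serpina1a* chr12:103853757-103853816, *Serpina1b* chr12:103728324-103728383, *Serpina1c* chr12:103895094-103895153, *Serpina1d* chr12:103763762-103763821, *Serpina1e* chr12:103947100-103947159.
Serpina1a: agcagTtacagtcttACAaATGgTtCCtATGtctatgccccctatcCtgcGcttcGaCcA
Serpina1b: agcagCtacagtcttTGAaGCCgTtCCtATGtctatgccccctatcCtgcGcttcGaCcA
Serpina1c: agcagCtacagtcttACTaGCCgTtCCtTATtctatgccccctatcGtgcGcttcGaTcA
Serpina1d: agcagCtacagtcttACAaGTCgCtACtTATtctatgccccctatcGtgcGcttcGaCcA
Serpina1e: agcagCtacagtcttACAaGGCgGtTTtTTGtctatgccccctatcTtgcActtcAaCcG
Outside such stretches the copies run into each other. Of all stretches of 150 bases in its annotated transcripts, 50.5% in *Serpina1c*, 35.1% in *Serpina1a*, 23.3% in *Serpina1d*, 11.9% in *Serpina1b* and 7.36% in *Serpina1e* occurred unchanged in another gene. A read of that length from such a stretch fits both genes, so the values of single *Serpina1* copies, and of *Serpina1a* and *Serpina1c* above all, are uncertain. *Serpina3k* shared 0.262% of its stretches and *Serpina3m* 0.331%, although the annotated span of *Serpina3m* contains *Serpina3k* on the same strand, with 7659 bases in common. *Serpina11* shared 32.9% with *Gm28577*, a transcript that also overlaps *Serpina9* and was at a mean of 0.0237 FPKM in WT and 0.0836 FPKM in β-cateninΔ(ex3)/+ livers.

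The 250 bases before the start of 4 genes are shown, since these genes differed most between the groups or, for *Serpina1a*, serve as the near-identical comparison. They were taken from RefSeq (GRCm38.p6), which held such a sequence for 40 of the 48 serpin genes and 21 of the 27 tested, and for *Serpina3k* none was at hand. All 4 genes lie on the minus strand, at *Serpina1a* chr12:103863620-103863869, *Serpina1e* chr12:103956898-103957147, *Serpina12* chr12:104044444-104044693, *Serpina7* chrX:139085237-139085486. Capitals mark GTTAAT, which is 1 arm of the site of the hepatocyte factor HNF1, or ATCAAAG, the reverse complement of CTTTGAT, which is bound by the TCF/LEF factors that recruit β-catenin.
Serpina1a: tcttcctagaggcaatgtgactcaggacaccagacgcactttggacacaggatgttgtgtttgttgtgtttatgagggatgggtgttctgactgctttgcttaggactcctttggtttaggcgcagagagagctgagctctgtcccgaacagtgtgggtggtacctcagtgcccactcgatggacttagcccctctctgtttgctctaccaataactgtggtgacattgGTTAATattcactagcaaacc
Serpina1e: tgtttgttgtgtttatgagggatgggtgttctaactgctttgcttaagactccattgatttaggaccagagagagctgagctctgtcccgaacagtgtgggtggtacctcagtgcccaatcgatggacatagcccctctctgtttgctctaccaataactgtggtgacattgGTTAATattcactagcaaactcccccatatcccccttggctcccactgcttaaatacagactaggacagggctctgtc
Serpina12: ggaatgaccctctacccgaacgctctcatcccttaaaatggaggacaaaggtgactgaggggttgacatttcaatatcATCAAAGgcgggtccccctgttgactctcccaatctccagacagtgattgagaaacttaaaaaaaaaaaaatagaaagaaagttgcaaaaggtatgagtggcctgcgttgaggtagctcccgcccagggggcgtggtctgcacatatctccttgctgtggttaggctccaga
Serpina7: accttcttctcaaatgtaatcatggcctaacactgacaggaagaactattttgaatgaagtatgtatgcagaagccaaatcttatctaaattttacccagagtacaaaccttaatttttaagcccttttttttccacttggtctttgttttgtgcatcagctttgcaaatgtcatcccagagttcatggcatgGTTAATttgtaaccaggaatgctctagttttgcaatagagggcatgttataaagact
Motifs of HNF1, TCF/LEF, STAT and HNF4 were searched on both strands of these windows. GTTAAT was found in the windows of 7 of the 21 tested genes, which were *Serpina1a* to *Serpina1e*, *Serpina7* and *Serpinb8*, against 6.43% of all 32851 promoters. It was found in 8 of all 40 serpin genes with a window. The windows of *Serpina1a* to *Serpina1e* were 91.4% to 97.0% identical between pairs where they overlap, so their matches are not separate ones. Serpin genes were counted if any of their promoters matched, while the share is per promoter, so counts and shares are not of the same unit. CTTTGAT was found in *Serpina12* and *Serpind1*, against 3.21% of all promoters, and began 172 bases before the start of *Serpina12*. The STAT motif TTCNNNGAA, which holds 3 bases of any kind, was found in *Serpina11*, *Serpina3f*, *Serpina3g* and *Serpinb6a*, against 7.02%, and the HNF4 motif CAAAGTCCA in none of the 21, against 0.384%. The windows of *Serpina1a* and *Serpina1e* were 95.3% identical over the 193 positions in which they overlap, because the RefSeq start of *Serpina1e* lies further downstream, with GTTAAT 78 bases before it rather than 21. The deposited table places the other end of *Serpina1e*, from which it is transcribed, at 103958975, so by that annotation the window of *Serpina1e* lies inside the gene. These matches describe letters in a window and were not tested against the expression values.

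The livers differed in more than the serpin genes. *Glul* and *Oat*, which β-catenin is known to raise in hepatocytes around the central vein, were 2.59 and 5.19 higher on the log2 scale in β-cateninΔ(ex3)/+ livers, and *Axin2*, a feedback gene of Wnt signalling, was 1.86 higher, while *Ctnnb1* differed by -0.097. The 4 hepatocyte markers in the table, *Alb*, *Apoa1*, *Ttr* and *Hnf4a*, summed to 68861 to 72084 FPKM in WT and to 33571 to 33940.0 FPKM in β-cateninΔ(ex3)/+ livers, so that their sum was high in all 6 livers. *Hnf4a*, the lowest of the 4, went against the sum, from a mean of 57.6 FPKM in WT to 125 FPKM in β-cateninΔ(ex3)/+ livers. Sex-linked genes split the groups: *Xist*, the RNA of the inactive X chromosome in females, was between 20.3 and 22.2 FPKM in WT livers and at most 0.0146 FPKM in β-cateninΔ(ex3)/+ livers, while the Y-linked *Ddx3y* was between 5.83 and 5.98 FPKM in β-cateninΔ(ex3)/+ livers and at most 0.0156 FPKM in WT livers. The 5 markers of young liver (*Afp*, *H19*, *Igf2*, *Gpc3* and *Dlk1*) summed to 3813 to 3880.4 FPKM in WT and to 3.98 to 4.39 FPKM in β-cateninΔ(ex3)/+ livers, against the common age in the labels, and the 5 markers of adult liver (*Mup20*, *Cyp7b1*, *Cyp2c29*, *Elovl3* and *Obp2a*) to 17.1 to 18.4 and 666 to 691 FPKM. These splits run through all 3 livers of each group, so no result can be given without them, and genotype, sex and stage of the liver cannot be told apart in any comparison that follows. The steps between low values put the WT libraries deeper, at 49.0 to 49.6 M units against 33.9 to 39.2 M, where a unit is a fragment or a single mate.

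Of the 27 serpin genes tested, 4 rose and 2 fell in β-cateninΔ(ex3)/+ livers by at least 2-fold at an adjusted p under 0.05 in limma, on the log2(FPKM + 1) scale. That is 6 of 27, beside 12.7% of all genes tested, of which 8.17% were higher and 4.52% lower. *Serpina3k*, *Serpina12*, *Serpina1e* and *Serpinb8* rose, and *Serpina7* and *Serpina11* fell. *Serpina12* and *Serpinb8* reached the filter of a mean of 0.5 FPKM only through the group in which they were high, so they had to differ, and of the 25 genes that reached it in both groups 2 rose and 2 fell. At an adjusted p under 0.05 and any fold, 13 serpin genes were higher, beside 37.4% of all genes tested, and 11 lower, beside 19.6%, or 24 beside 57.0% in either direction, and the livers of the groups did not overlap for 25 of the 27, beside 66.0%. The median log2 fold change of the 27 was 0.12 against 0.14 over all genes tested, and turned to -0.075 by median-ratio scaling and -0.073 by quantile normalization, while the median of its absolute value was 0.65 against 0.35. The genes behind these comparisons were not matched by level. On log2(FPKM + 1) the folds of low genes shrink, and 14 of the 27 serpin genes were at 100 FPKM or more in each group. Large and small values on the log2 scale moved with the scaling between livers. By median ratios *Serpina3k* went from 6.40 to 6.21, *Serpina1e* from 2.95 to 2.76 and *Serpina3n* from -0.71 to -0.90. Such a shift weighs more in values close to 0. By median ratios and by quantiles *Serpina1d* was at -0.29 and -0.38, *Serpina1a* at -0.45 and -0.40, *Serpina6* at 0.35 and 0.35 and *Serpinc1* at -0.48 and -0.45, and by quantiles *Serpinh1* was at -0.73 and *Serpina10* at 0.37, all in the direction of the values given below. In whole liver, fewer cells of a type and less RNA per cell cannot be told apart.

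**Figure D1:**
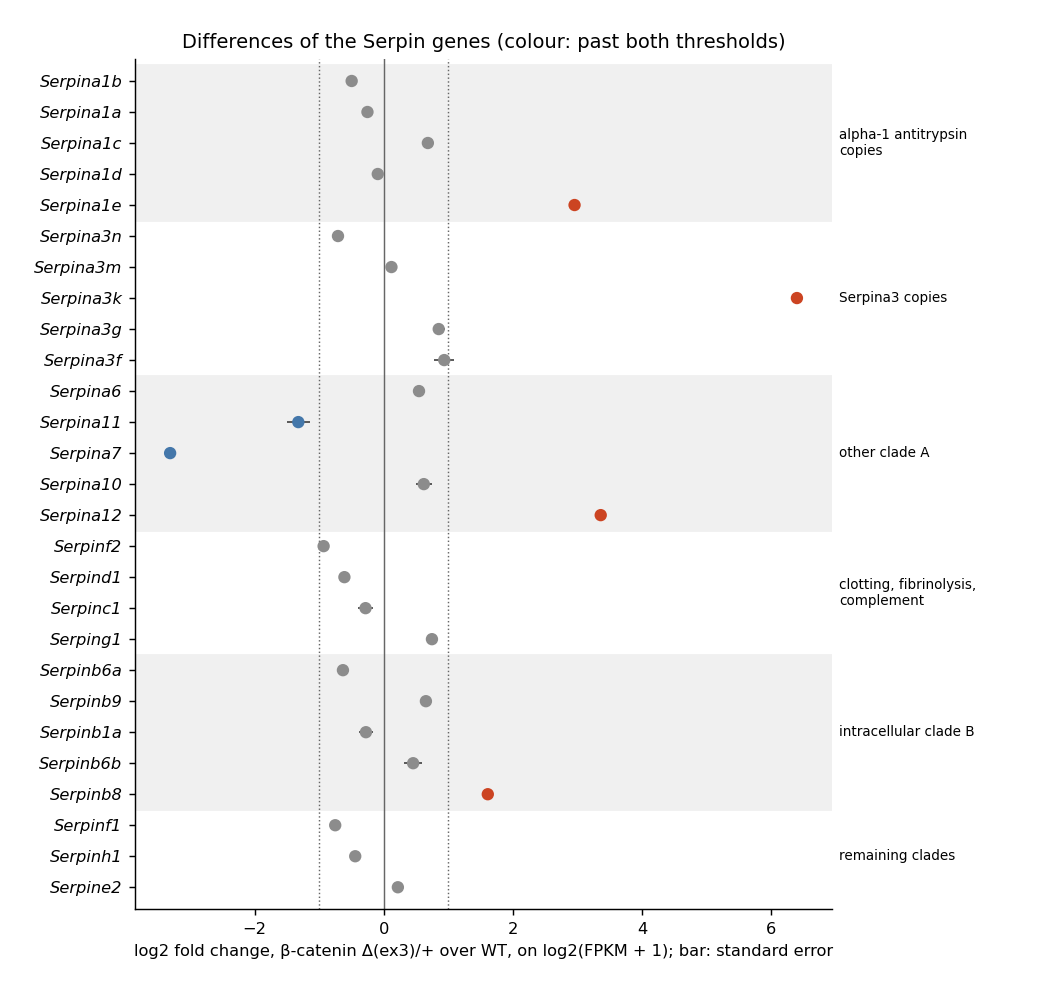
Log2 fold change of each of the 27 serpin genes tested (x axis, β-cateninΔ(ex3)/+ over WT, on log2(FPKM + 1)) by role; bars are standard errors, dotted lines mark 2-fold and coloured points passed both thresholds. *Serpina3k* lies furthest to the right at 6.40 and *Serpina7* furthest to the left at -3.31.

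The levels spanned more than 4 orders of magnitude and were close between livers of a group. In each group 14 of the 27 genes were at 100 FPKM or more, and between 6 and 7 of them stood among the 100 highest genes of the whole table in every liver. The median coefficient of variation between livers was 6.84% in WT and 2.90% in β-cateninΔ(ex3)/+. Summed over the 48 genes, serpin transcripts were at 13557 ± 181 FPKM in WT (SD, n = 3) and at 20462 ± 185 FPKM in β-cateninΔ(ex3)/+ livers (SD, n = 3), or at 3.04% and 4.37% of all FPKM in the table, with no overlap between the groups (exact permutation test, two-sided, p = 0.1, which 3 against 3 livers cannot go below). The largest rises in mean FPKM were those of *Serpina1e* (672 to 5216), *Serpina3k* (32.5 to 2818) and *Serpina1c* (2683 to 4307). The sum does not stand for each gene. At an adjusted p under 0.05 and any fold 13 of the 27 were higher, beside 37.4%, and 11 lower, beside 19.6%. The other 21 genes were under the filter, and 5 of these were at 0 in every liver. The highest single value among the 21 was 0.513 FPKM, for *Serpina16* in WT liver 1, and it was 0 in the other 5 livers.

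**Figure D2:**
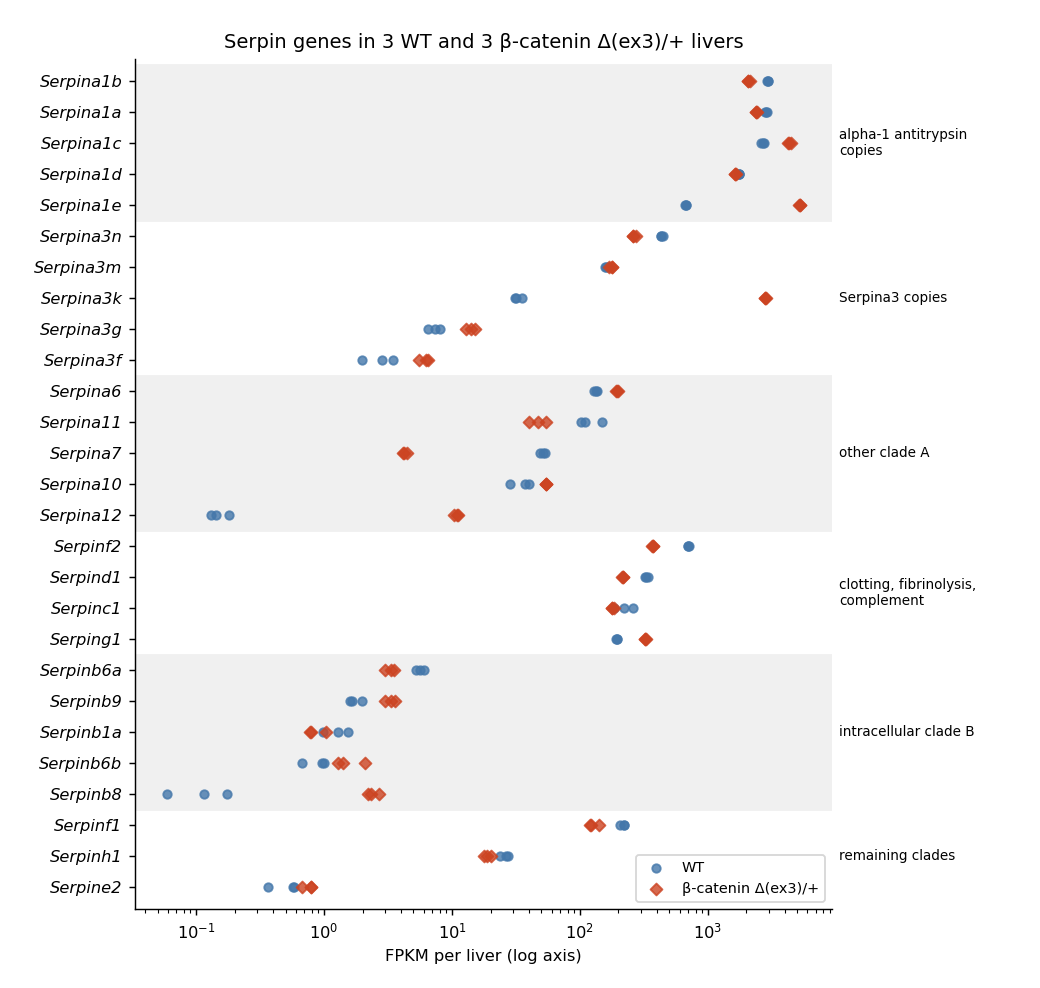
FPKM of the 27 serpin genes tested in each of the 3 WT (circles) and 3 β-cateninΔ(ex3)/+ livers (diamonds), on a log axis, by role and by WT level. The circles and diamonds of *Serpina3k*, *Serpina12* and *Serpinb8* lie far apart, and those of *Serpinc1* and *Serpinb1a* overlap.

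Among the copies of α1-antitrypsin, 1 of 5 tested passed both thresholds, beside 12.7% of all genes tested. *Serpina1e* (chromosome 12 from 103946931 to 103958975) was at 672, 668 and 676 FPKM in WT livers and at 5231, 5277 and 5140.3 FPKM in β-cateninΔ(ex3)/+ livers. It was the lowest of the 5 copies in every WT liver and the highest in every β-cateninΔ(ex3)/+ liver, and it moved from median rank 76 to median rank 17 among all genes of the table. The ratio of the means was 7.76 and the log2 fold change 2.95 ± 0.020 (SE, limma adjusted p = 8.57e-09). *Serpina1c* was at 2699, 2756 and 2595 FPKM in WT and at 4422, 4281 and 4216 FPKM in β-cateninΔ(ex3)/+ livers, a log2 fold change of 0.68 ± 0.031 (SE, limma adjusted p = 1.19e-05) that stayed under 2-fold. The remaining copies were lower in each β-cateninΔ(ex3)/+ liver than in any WT liver, also under 2-fold. The log2 fold change was -0.50 for *Serpina1b*, from 2923 ± 39.7 to 2069.8 ± 44.3 FPKM, -0.25 for *Serpina1a*, from 2846 ± 66.7 to 2388 ± 26.3 FPKM, and -0.093 for *Serpina1d*, from 1752 ± 8.72 to 1642 ± 5.67 FPKM (SD, n = 3 each). *Serpina1f* was not above the filter.

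The sum over the *Serpina1* copies depends less on how fragments are split between them than the single copies do, although FPKM are scaled by length and the copies differ in length. It was 10901, 10969.9 and 10758 FPKM in WT and 15802, 15651 and 15413 FPKM in β-cateninΔ(ex3)/+ livers, with every β-cateninΔ(ex3)/+ liver above every WT liver. The log2 difference of 0.52 (exact permutation test, two-sided, p = 0.1, the lowest this design allows) was under 2-fold. Within that sum *Serpina1e* took 6.18% ± 0.0983 in WT and 33.4% ± 0.308 in β-cateninΔ(ex3)/+ livers (SD, n = 3). The shares of *Serpina1a* and *Serpina1b* went from 26.2% and 26.9% to 15.3% and 13.2%, that of *Serpina1d* from 16.1% to 10.5%, and that of *Serpina1c* from 24.7% to 27.6%. The copies shown above share between 7.36% and 50.5% of their 150-base stretches with another gene, least in *Serpina1e*, and the part of shared stretches in these shares was not tested.

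Among the *Serpina3* copies, relatives of α1-antichymotrypsin, 1 of 5 tested passed both thresholds, beside 12.7% of all genes tested. *Serpina3k* (chromosome 12 from 104338486 to 104346144), also known as contrapsin, an inhibitor of trypsin-like proteases, had the largest log2 fold change of the family. It was at 30.8, 35.2 and 31.5 FPKM in WT livers and at 2806, 2817 and 2831 FPKM in β-cateninΔ(ex3)/+ livers. All 3 β-cateninΔ(ex3)/+ livers were thus far above the WT livers, with a ratio of the means of 86.7 and a log2 fold change of 6.40 ± 0.053 (SE, limma adjusted p = 1.49e-08), and the median rank of the gene went from 1180 to 26. *Serpina3n*, an inhibitor of granzyme B and neutrophil proteases that rises in inflammation, was the highest copy in WT at 428, 447 and 427 FPKM and fell to 262, 259.5 and 274 FPKM. Its log2 fold change was -0.71 ± 0.035 (SE, limma adjusted p = 1.53e-05). *Serpina3m* was at 160.3 ± 4.96 FPKM in WT and 174 ± 4.58 FPKM in β-cateninΔ(ex3)/+ livers (SD, n = 3), a log2 fold change of 0.12 whose sign turned under another scaling between livers, to -0.075 by median ratios and -0.073 by quantiles, and whose limma adjusted p rose above 0.05 under 9 alternatives, 4 of them with a liver left out. *Serpina3f* and *Serpina3g* were low and higher in every β-cateninΔ(ex3)/+ liver, by 0.94 and 0.85 on the log2 scale. Mean levels were 2.76 and 6.10 FPKM for *Serpina3f* and 7.30 and 13.95 FPKM for *Serpina3g*, in WT and β-cateninΔ(ex3)/+ livers. Without WT liver 3 *Serpina3f* also passed 2-fold, at 1.07. The other 5 copies were under the filter.

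Summed over its copies, *Serpina3* was at 625, 659 and 628 FPKM in WT and at 3266, 3275 and 3293 FPKM in β-cateninΔ(ex3)/+ livers. The groups lay far apart, with a ratio of the means of 5.14 and a log2 difference of 2.36 (exact permutation test, two-sided, p = 0.1, the lowest this design allows). *Serpina3n* made up 68.1% of the sum in WT livers and 8.08% in β-cateninΔ(ex3)/+ livers, and *Serpina3k* 5.09% and 86.0%. The coding sequences of *Serpina3k* and *Serpina3m*, its closest pair, were 91.0% identical, against at least 96.3% for each pair of *Serpina1* copies.

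**Figure D3:**
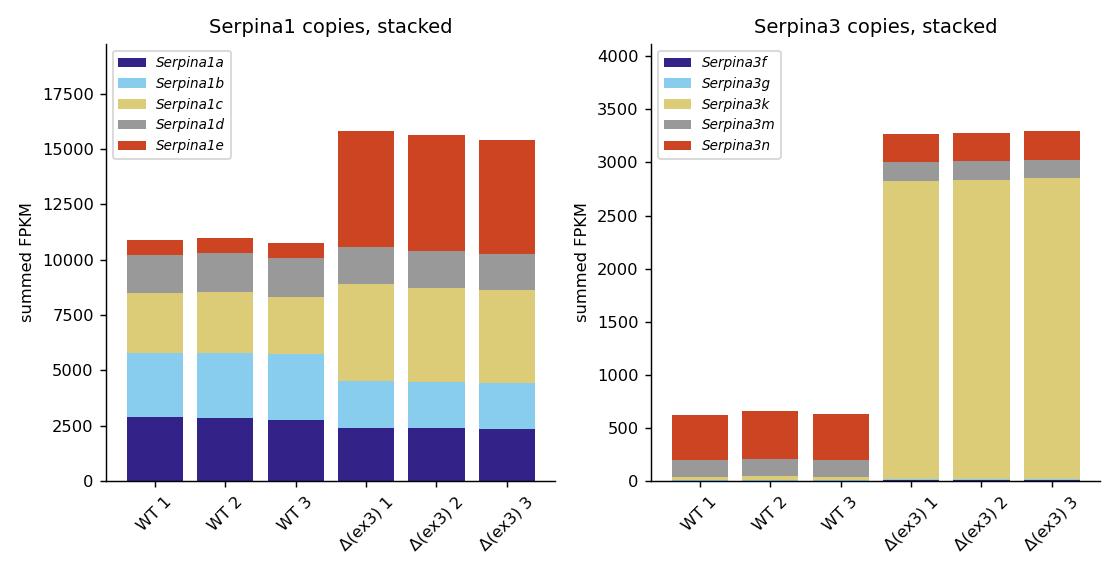
Summed FPKM (y axis, from 0) of the tested *Serpina1* copies (left) and *Serpina3* copies (right) in each liver, stacked by copy; Δ(ex3) stands for β-cateninΔ(ex3)/+. *Serpina1e* grows from 6.18% to 33.4% of the left stack, and *Serpina3k* from 5.09% to 86.0% of the right one.

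Of the other clade A genes, 1 of 5 tested rose and 2 fell past both thresholds, beside 8.17% and 4.52% of all genes tested. *Serpina12* (chromosome 12 from 104028769 to 104044443) encodes vaspin, an adipokine that inhibits kallikrein 7. It was at 0.180, 0.143 and 0.131 FPKM in WT livers and at 10.4, 11.1 and 11.03 FPKM in β-cateninΔ(ex3)/+ livers. It was thus near 0 in all WT livers. It reached the expression filter only through the β-cateninΔ(ex3)/+ livers, so it had to differ and no p-value is given. The log2 fold change was 3.36 ± 0.055 (SE), or 5.44 at a pseudocount of 0.1 in place of 1. *Serpina7* (chromosome X from 139079257 to 139085217) encodes thyroxine-binding globulin, a carrier of thyroid hormone that inhibits no protease. It was at 49.0, 53.6 and 51.1 FPKM in WT livers and at 4.13, 4.24 and 4.43 FPKM in β-cateninΔ(ex3)/+ livers. All 3 WT livers were far above the β-cateninΔ(ex3)/+ livers, and the log2 fold change was -3.31 ± 0.050 (SE, limma adjusted p = 1.25e-07). *Serpina7* is the only serpin gene of the 48 on chromosome X, and the groups also differ in *Xist*, as given above. *Serpina11*, a secreted serpin of the liver without a known target, was at 109, 149 and 103 FPKM in WT and at 39.7, 54.4 and 47.2 FPKM in β-cateninΔ(ex3)/+ livers. WT liver 2 stood above the other 2 WT livers, but the groups did not overlap, with a log2 fold change of -1.32 ± 0.17 (SE, limma adjusted p = 0.00113).

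*Serpina6* encodes corticosteroid-binding globulin, the plasma carrier of glucocorticoids. It was at 133 ± 2.94 FPKM in WT and 194 ± 3.51 FPKM in β-cateninΔ(ex3)/+ livers (SD, n = 3), a log2 fold change of 0.55 ± 0.031 (SE, limma adjusted p = 3.05e-05). *Serpina10*, the protein Z-dependent inhibitor of factor Xa, was at 28.6, 40.3 and 37.1 FPKM in WT and at 54.6, 54.5 and 53.9 FPKM in β-cateninΔ(ex3)/+ livers, a log2 fold change of 0.62 ± 0.12 (SE, limma adjusted p = 0.00621). Both were higher in every β-cateninΔ(ex3)/+ liver and under 2-fold. *Serpina5*, the protein C inhibitor, was under the filter and not tested, at 0.466, 0.284 and 0.349 FPKM in WT and at 0.0485, 0 and 0 FPKM in β-cateninΔ(ex3)/+ livers.

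A total of 23 of the 48 serpin genes lay within 799.5 kb of chromosome 12, from 103614786 to 104414329, and the other 25 elsewhere, with 9 on chromosome 1 and 8 on chromosome 13. All 23 belong to clade A, and 14 of them were tested, of which 3 rose and 1 fell past both thresholds, beside 8.17% higher and 4.52% lower of all genes tested. *Serpina12*, 1 of the 3 that rose, reached the expression filter through 1 group only. The 4 did not stand together by direction. *Serpina11*, which fell, lies between *Serpina1e* and *Serpina12*, which rose, and *Serpina3k* stands apart near the other end of the cluster.

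**Figure D4:**
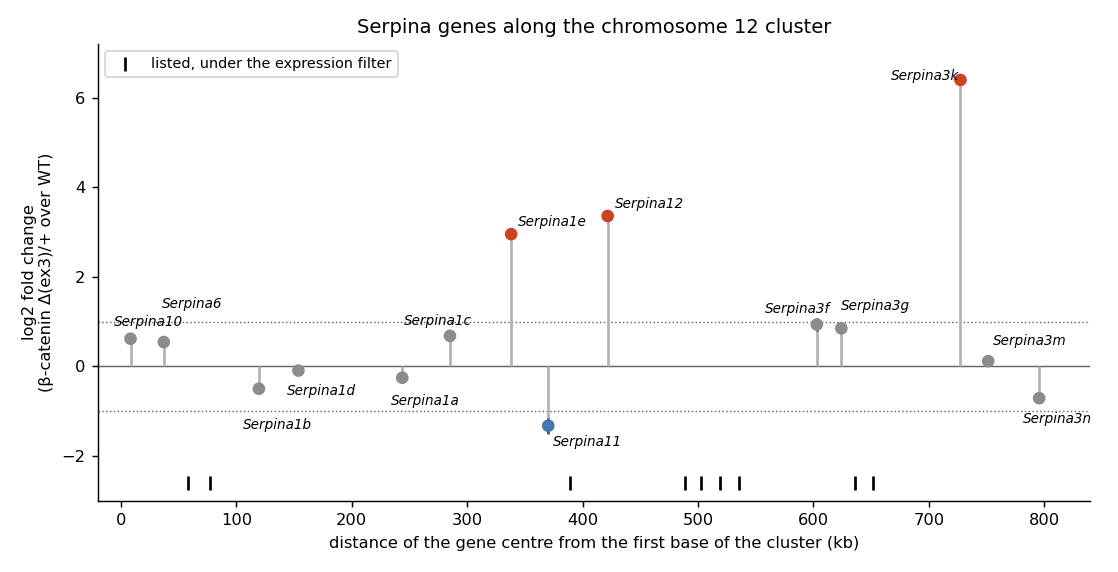
Log2 fold change (y axis, β-cateninΔ(ex3)/+ over WT) of the serpin genes of the chromosome 12 cluster against the distance of the gene centre from the first base of the cluster (x axis, kb); coloured points passed both thresholds, bars are standard errors and ticks at the bottom are genes under the expression filter. *Serpina11* lies below -1 between *Serpina1e* and *Serpina12*, which lie above 2.9.

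Of 4 inhibitors of clotting, fibrinolysis and complement tested, none passed both thresholds, beside 12.7% of all genes tested. At an adjusted p under 0.05 and any fold 2 were lower, beside 19.6%, and 1 was higher, beside 37.4%. *Serpinf2*, which encodes α2-antiplasmin, the inhibitor of plasmin, fell from 705 ± 9.09 to 369 ± 2.97 FPKM (SD, n = 3), just under 2-fold at -0.93 on the log2 scale (standard error 0.023, limma adjusted p = 9.19e-07). It passed 2-fold after scaling between livers, at -1.13 by median ratios and -1.05 by quantiles. *Serpind1*, heparin cofactor II, a second inhibitor of thrombin, was at 331 ± 10.3 FPKM in WT and 216 ± 3.05 FPKM in β-cateninΔ(ex3)/+ livers (SD, n = 3), a log2 fold change of -0.61 ± 0.033 (SE, limma adjusted p = 2.19e-05).

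*Serping1*, the C1 inhibitor, which blocks the first proteases of complement and plasma kallikrein, moved the other way. It was at 196, 194 and 193 FPKM in WT and at 325, 323 and 330.0 FPKM in β-cateninΔ(ex3)/+ livers, a log2 fold change of 0.75 ± 0.025 (SE, limma adjusted p = 3.05e-06). *Serpinc1*, which encodes antithrombin, was at 185, 259 and 222 FPKM in WT and at 185, 179.6 and 177 FPKM in β-cateninΔ(ex3)/+ livers. The lowest WT liver lay within the range of the β-cateninΔ(ex3)/+ livers, and the log2 fold change of -0.28 did not pass the test (standard error 0.12, limma adjusted p = 0.0856). Without WT liver 1 it passed, at -0.41 (limma adjusted p = 0.00875), and without WT liver 2 it was -0.16.

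The clade B serpins lack a signal peptide and act inside cells, many of them in leukocytes, where they guard against the cell's own granule proteases. The table holds 15 of them, of which 5 were tested and 1 passed both thresholds, beside 12.7% of all genes tested. *Serpinb8*, an inhibitor of furin, was at 0.0591, 0.175 and 0.115 FPKM in WT and at 2.33, 2.20 and 2.70 FPKM in β-cateninΔ(ex3)/+ livers. It was near 0 in all WT livers and reached the expression filter only through the β-cateninΔ(ex3)/+ livers. It thus had to differ, and no p-value is given. The log2 fold change was 1.61 ± 0.081 (SE), or 3.57 at a pseudocount of 0.1. *Serpinb9*, the inhibitor of granzyme B, was at 1.74 ± 0.209 FPKM in WT and 3.31 ± 0.299 FPKM in β-cateninΔ(ex3)/+ livers (SD, n = 3), a log2 fold change of 0.65 (limma adjusted p = 0.00106). *Serpinb6a*, an inhibitor of cathepsin G, went the other way, from 5.66 ± 0.387 to 3.29 ± 0.251 FPKM (SD, n = 3), a log2 fold change of -0.63 (limma adjusted p = 0.000582). *Serpinb6b* was higher by 0.45 (limma adjusted p = 0.0316), a call lost under 8 alternatives, 5 of them with a liver left out, at limma adjusted p from 0.0527 to 0.0867. *Serpinb1a*, an inhibitor of neutrophil elastase, differed by -0.28 (limma adjusted p = 0.0775), with overlapping groups, and passed the test without WT liver 1, at -0.37.

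Markers of blood cells moved beside these genes. All 8 neutrophil markers tested fell past both thresholds, beside 4.52% of all genes tested. Of these, *Mpo* and *Ltf* were at means of 0.274 and 0.412 FPKM in β-cateninΔ(ex3)/+ livers. They reached the expression filter only through the WT livers, so they had to differ. The marker under the filter, *Cxcr2*, was at a mean of 0.327 FPKM in WT and 0.337 FPKM in β-cateninΔ(ex3)/+ livers. *Prtn3*, which encodes a neutrophil protease and is not in this list, rose, as given below. The list of 9 summed to 354 to 380 FPKM in WT and to 31.7 to 33.4 FPKM in β-cateninΔ(ex3)/+ livers. Of 7 Kupffer cell and macrophage markers 3 rose and 1 fell past both thresholds, beside 8.17% and 4.52% of all genes tested. At an adjusted p under 0.05 and any fold 6 were higher, beside 37.4%, and 1 was lower, beside 19.6%. The 7 summed to 215 to 222 FPKM in WT and 489 to 497 FPKM in β-cateninΔ(ex3)/+ livers. The 8 T and NK cell markers summed to 12.98 to 16.4 FPKM and 15.5 to 17.98 FPKM, the 5 markers of megakaryocytes and platelets to 26.1 to 28.6 FPKM and 3.71 to 5.07 FPKM, and the 6 erythroid markers to 1778 to 2004 FPKM and 1002 to 1019.7 FPKM. Of 6 T and NK cell markers tested, 1 rose and 0 fell past both thresholds, beside 8.17% and 4.52%. At an adjusted p under 0.05 and any fold 3 of these were higher, beside 37.4%, and 1 was lower, beside 19.6%. No marker of these lists was at 0 in every liver, and their part in the clade B values was not tested.

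Of the remaining clades 3 of 5 genes were tested and none passed both thresholds, beside 12.7% of all genes tested. *Serpinf1* encodes PEDF, a secreted serpin that inhibits the growth of blood vessels and no protease. It was at 221, 204 and 219 FPKM in WT and at 119.8, 141 and 121 FPKM in β-cateninΔ(ex3)/+ livers, which did not overlap (log2 fold change -0.75, standard error 0.073, limma adjusted p = 0.000292). *Serpinh1* encodes HSP47, the collagen chaperone of the endoplasmic reticulum, and was at 26.0 ± 1.85 FPKM in WT and 18.8 ± 1.19 FPKM in β-cateninΔ(ex3)/+ livers (SD, n = 3), a log2 fold change of -0.44 ± 0.071 (SE, limma adjusted p = 0.00265). *Serpine2*, protease nexin-1, was at 0.509 and 0.752 FPKM on average, a log2 fold change of 0.22 (limma adjusted p = 0.0679). Beside *Serpinh1*, 4 of 7 stellate cell markers fell past both thresholds, beside 4.52% of all genes tested. All 7 were lower at an adjusted p under 0.05 and any fold, beside 19.6%. The 7 summed to 86.7 to 89.5 FPKM in WT and 25.7 to 28.7 FPKM in β-cateninΔ(ex3)/+ livers, and their part in the value of *Serpinh1* was not tested. Endothelial markers summed to 69.2 to 70.6 FPKM and 49.6 to 51.0 FPKM, and bile duct markers to 39.6 to 43.1 FPKM and 18.5 to 19.3 FPKM.

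Lists of genes that act with serpins were read beside the family. Of 28 target proteases tested, 2 rose and 3 fell past both thresholds, beside 8.17% and 4.52% of all genes tested, and 1 of the 5 reached the expression filter through 1 group only. *Prtn3*, which encodes a neutrophil serine protease, rose by 2.36 on the log2 scale and *Ctss*, the lysosomal cathepsin S of antigen-presenting cells, by 2.04, while *Elane*, neutrophil elastase and the target of α1-antitrypsin, fell by 1.46 and *Ctsl*, cathepsin L, by 1.02. Among the 28 the median was -0.061. Of 21 receptors, cofactors and clients tested, none rose and 6 fell, beside the same shares of all genes. At an adjusted p under 0.05 and any fold 5 of them were higher, beside 37.4%, and 9 lower, beside 19.6%. *Col3a1*, *Col1a2* and *Col4a2*, collagen chains and clients of HSP47, fell by 2.43, 1.67 and 1.66, and *Ttr*, the other main thyroid hormone carrier beside thyroxine-binding globulin, fell by 1.42. *Ttr* was at 4426 to 4458 FPKM in β-cateninΔ(ex3)/+ livers and at a mean of 11863 FPKM in WT livers. Some genes called here are also in the marker lists above, so their calls are not separate ones. *Elane* is also a neutrophil marker, *Ttr* a hepatocyte marker and *Col3a1*, with another collagen gene, a stellate cell marker.

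Of 24 protease inhibitors of other families tested, 5 rose and 5 fell, again beside 8.17% and 4.52% of all genes, and 2 of the 10, among them *Spink1*, reached the filter through 1 group only. The murinoglobulins *Mug2* and *Mug1*, plasma inhibitors that entrap proteases, rose by 6.65 and 3.63 on the log2 scale, and *Ahsg*, or fetuin-A, and *Spink1*, a trypsin inhibitor, fell by 2.52 and 2.38. *Mug2* was at 1.011, 0.893 and 1.06 FPKM in WT and at 196, 198 and 204 FPKM in β-cateninΔ(ex3)/+ livers, a larger log2 fold change than that of any serpin gene. Of 14 regulators of serpin genes, 3 rose and 1 fell, beside 8.17% and 4.52%, but *Bcl6* and *Cux2* reached the filter only through the group in which they were high and so had to differ. *Bcl6*, a repressor more abundant in male than in female mouse liver, rose by 2.54, *Cebpb* and *Hnf4a*, activators of liver genes, by 1.67 and 1.10, and *Cux2*, a factor largely restricted to female mouse liver, fell by 2.10. *Bcl6* was at 0.242, 0.324 and 0.283 FPKM in WT and at 6.73, 6.19 and 6.41 FPKM in β-cateninΔ(ex3)/+ livers, and *Cux2* at 3.74, 3.84 and 3.65 FPKM and at 0.126, 0.106 and 0.0840 FPKM. Neither overlapped between the groups, beside 66.0% of all genes tested.

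**Figure D5:**
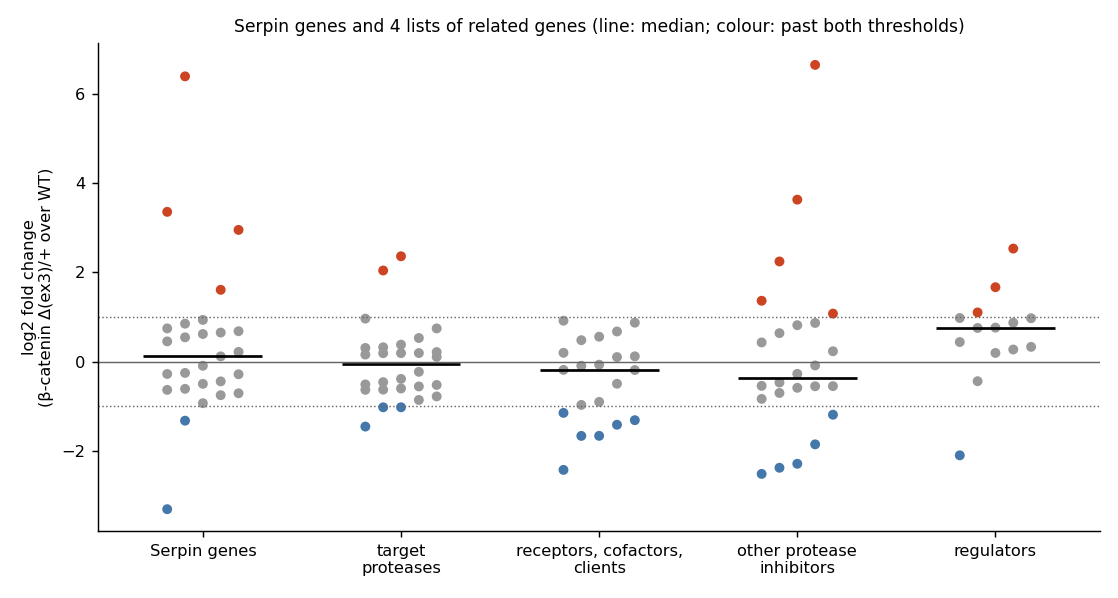
Log2 fold change (y axis, β-cateninΔ(ex3)/+ over WT) of the 27 serpin genes tested and of the tested members of the 4 lists of related genes; each point is a gene, lines are medians and coloured points passed both thresholds. Calls went in both directions in each column except that of the receptors, cofactors and clients, where the 6 called genes all fell.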

How the data were processed

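RNA from 3 WT and 3 β-cateninΔ(ex3)/+ livers, 1 library each, was compared, grouped by the sample labels. The authors sequenced strand-marked poly(A) libraries as paired reads, and the values they deposited are FPKM per gene. The submitters' processing notes name cutadapt 1.9, HISAT2 2.0.4, StringTie 1.3.4d, DESeq2 and edgeR, and the build is not given in the sources used here, although GENCODE M21, an annotation of GRCm38, gives 28911 of the genes identical coordinates. FPKM are not counts, so count tests were not run; depth was estimated from steps between low values, with a tolerance of 0.02 of a step, and no counting intervals are given. Nothing states that the depth unit is a fragment.

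log2(FPKM + 1) of genes with a mean of at least 0.5 FPKM entered 1 fit over all 6 livers in R 4.3.3 by limma 3.58.1 (lmFit, trended eBayes), with Benjamini-Hochberg adjustment over 13243 genes and thresholds of 0.05 and 2-fold. The fit was tested on simulated data. Python 3.11.15, pandas 2.3.3, numpy 2.4.6 and scipy 1.17.1 gave the exact permutation tests on summed copies, and matplotlib 3.10.9 the plots. The limma p-values set the difference between groups against a variance between livers that is moderated over all genes tested. They do not separate genotype from sex or stage of the liver. Each tested serpin gene is named but for 1 that is not reported here and is left out of all counts of serpin genes, and of related lists at most 4 genes with the largest change among those past both thresholds; *Mug2*, *Bcl6*, *Cux2* and *Ttr* are given by liver after their values were seen. The serpin genes, lists and tests were chosen with earlier results of these data known. Annotation GENCODE M21 holds 63 genes that match the name rule, and 15 of these are not analysed here. Alternatives were another pseudocount, filters, scalings, no trend, a replicate block, livers left out, thresholds and summed copies.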

Additional observations from a re-analysis of the deposited data

Results flagged for a closer look

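*Serpina4-ps1*, a pseudogene by name that the name rule left out, lies in the same cluster on chromosome 12, from 104080649 to 104086724. It was read because its signal falls outside the genes compared above and exceeded that of the WT livers. It was at 0.297, 0.181 and 0.323 FPKM in WT and at 32.0, 34.7 and 34.05 FPKM in β-cateninΔ(ex3)/+ livers, a mean of 33.6 ± 1.40 FPKM (SD, n = 3). It was chosen for this difference, and reached the expression filter only through the β-cateninΔ(ex3)/+ livers, so the values are a description and no test is given.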

How the results depend on the processing

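Of 363 comparisons of a serpin gene with its value under an alternative, 357 kept their direction and their side of the thresholds, 0 lost a call, 4 gained one (*Serpina3f* at 1.15 with a pseudocount of 0.1 and at 1.07 without WT liver 3, *Serpinf2* at -1.13 and -1.05 under both scalings) and 2 turned (*Serpina3m* at -0.075 and -0.073 under the same scalings). Median-ratio scaling moved the median over all genes tested, on the log2 scale, from 0.14 to 0.0081 and quantile normalization to -0.018, the share of higher genes among all those called from 64.4% to 53.1% and 50.0%, and the serpin genes at any fold from 13 higher and 11 lower to 11 and 13 under both. At an adjusted p under 0.05 and any fold 4952 genes rose and 2599 fell, and at 1.5 or more on the log2 scale 521 and 238, against 1082 and 598; with a pseudocount of 0.1 it was 1706 and 999. In the same order of thresholds, serpin genes that rose numbered 13 at any fold rather than 4, and those that fell 11 and 1 rather than 2. Target proteases called numbered 24, 2 and, with a pseudocount of 0.1, 8 rather than 5. Receptors, cofactors and clients numbered 14 and 3 rather than 6, other inhibitors 24 at any fold rather than 10, and regulators 13 rather than 4. The replicate numbers of the labels share only a number (correlations of deviations -0.0054 to 0.027), and with the replicate block 4 serpin genes rose and 2 fell, as without it. With the copies summed, 3 of 18 serpin values rose and 2 fell. The depth limits low genes most: with a mean of at least 1 FPKM *Serpine2* was not tested, and the folds of *Serpina12* and *Serpinb8* depend on the pseudocount. At any fold, both scalings brought *Serpinc1* (-0.48 and -0.45) and *Serpinb1a* (-0.37 and -0.37) past the test, as leaving out WT liver 1 did (-0.41 and -0.37). The calls at any fold of *Serpinb6b* and *Serpina3m* were lost under 8 and 9 alternatives, both scalings and no expression filter among them, and that of *Serpina1d* under eBayes without a trend (limma adjusted p = 0.104); the cause was not tested.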
